A study of Mus musculus with 4 samples.

Results

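The 44 collagen genes described here are all genes of the deposited matrices whose symbol has the form Col, a number, a and a number, out of 32285 genes in all. They were grouped by protein class: 11 fibrillar, 6 basement membrane, 9 FACIT, 8 beaded filament and related, 4 short-chain and anchoring, 4 transmembrane and 2 multiplexin genes. Expression was measured in single nuclei of the mouse hypothalamic paraventricular nucleus (PVN), a centre of neuroendocrine control, with a droplet assay that counts the 3' ends of transcripts as unique molecular identifiers (UMIs). Micropunches from 5 male C57Bl6 mice (age label 10 weeks) were pooled for each of 4 libraries, with 2 libraries at zeitgeber time 8 (ZT8, hours after lights on, the light phase) and 2 at ZT20 (the dark phase). All groups share strain, sex and tissue, and time of day is the only label that separates them. Whether libraries of 1 time came from separate mice is not in the labels, so every p-value measures only the spread between these libraries, which may be technical.

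Collagens are trimeric proteins built around a triple helix. Fibrillar collagens assemble outside the cell into fibrils, and FACIT collagens, named for their interrupted triple helices, bind to the surface of fibrils. Type IV collagen forms the sheet-like network of basement membranes, which in the brain surround blood vessels and underlie the meninges, and type VI forms beaded microfilaments near cell surfaces. Transmembrane collagens stay anchored in the plasma membrane of the cell that makes them, with the helix facing outward, and can be shed. In the brain, fibroblasts of the meninges and vessels, mural cells and endothelial cells are known collagen producers, while neurons and glia make a narrower set that includes Col25a1, which encodes a neuronal transmembrane collagen found in amyloid plaques.

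Depth and makeup differed between the times. The libraries held 57970649 to 69223344 UMIs, and 28980 nuclei were kept, namely 6053 and 6513 at ZT8 against 7747 and 8667 at ZT20, with 9 to 22 barcodes shared between any pair of libraries. The median kept nucleus had 4366 and 5148 UMIs in the ZT8 libraries, and 3437 and 2063 in those of ZT20. A cluster of few-UMI nuclei left without a name took 118 and 216 nuclei of the ZT8 libraries against 2762 and 3754 of the others, and another one took 1257 and 1330 at ZT8 against 109 and 154 at ZT20. Clusters were formed without the collagen genes and named from other markers, so that "fibroblast-like" and similar names describe a cluster by those markers. The thalamic-like neurons were 1279 and 1379 nuclei at ZT8 against 799 and 750 at ZT20, the PVN-like neurons 81 and 93 against 230 and 202, and tanycyte-like nuclei 1 and 1 against 85 and 89. The libraries of the 2 times thus held different mixtures of nuclei, and in sums over many nuclei fewer cells of a type and less RNA per cell cannot be told apart.

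Collagen transcripts made up 171732 of the 226756145 UMIs of kept nuclei. Every collagen gene was detected, and 43 of 44 reached 100 UMIs, all but Col10a1, the hypertrophic cartilage collagen, with 64. Neuron-like nuclei held 73.8% of collagen UMIs, near their 70.2% of all UMIs of kept nuclei. Fibroblast-like nuclei, which led for 4 of the 11 fibrillar genes, held 1.95% of collagen UMIs and 0.313% of all UMIs. Col25a1 alone gave 39.8% of collagen UMIs. The assay counts 3' ends, with UMIs not scaled for gene length, so levels are compared below for 1 gene across classes and never between genes. Levels are CPM, the UMI count of a gene scaled to a fixed total of UMIs per library and class, in each library. Over the 43 genes, the class with the highest pooled level was fibroblast-like for 15, mural-like for 7, tanycyte-like for 7, ependymal-like for 6, oligodendrocyte precursor-like (OPC-like) for 5, and astrocyte-like, microglia-like and oligodendrocyte-like for 1 each. Neuron-like nuclei as a whole led none of the 43, and neither did endothelial-like nuclei. The leading class rested on 1 to 5 UMIs for Col6a4, Col6a6, Col7a1, Col17a1 and Col28a1, so for these 5 genes that class is not read further. With coarser clusters the leading class was the same for 42 of the 43, with Col22a1 moving from ependymal-like to fibroblast-like.

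**Figure D1:**
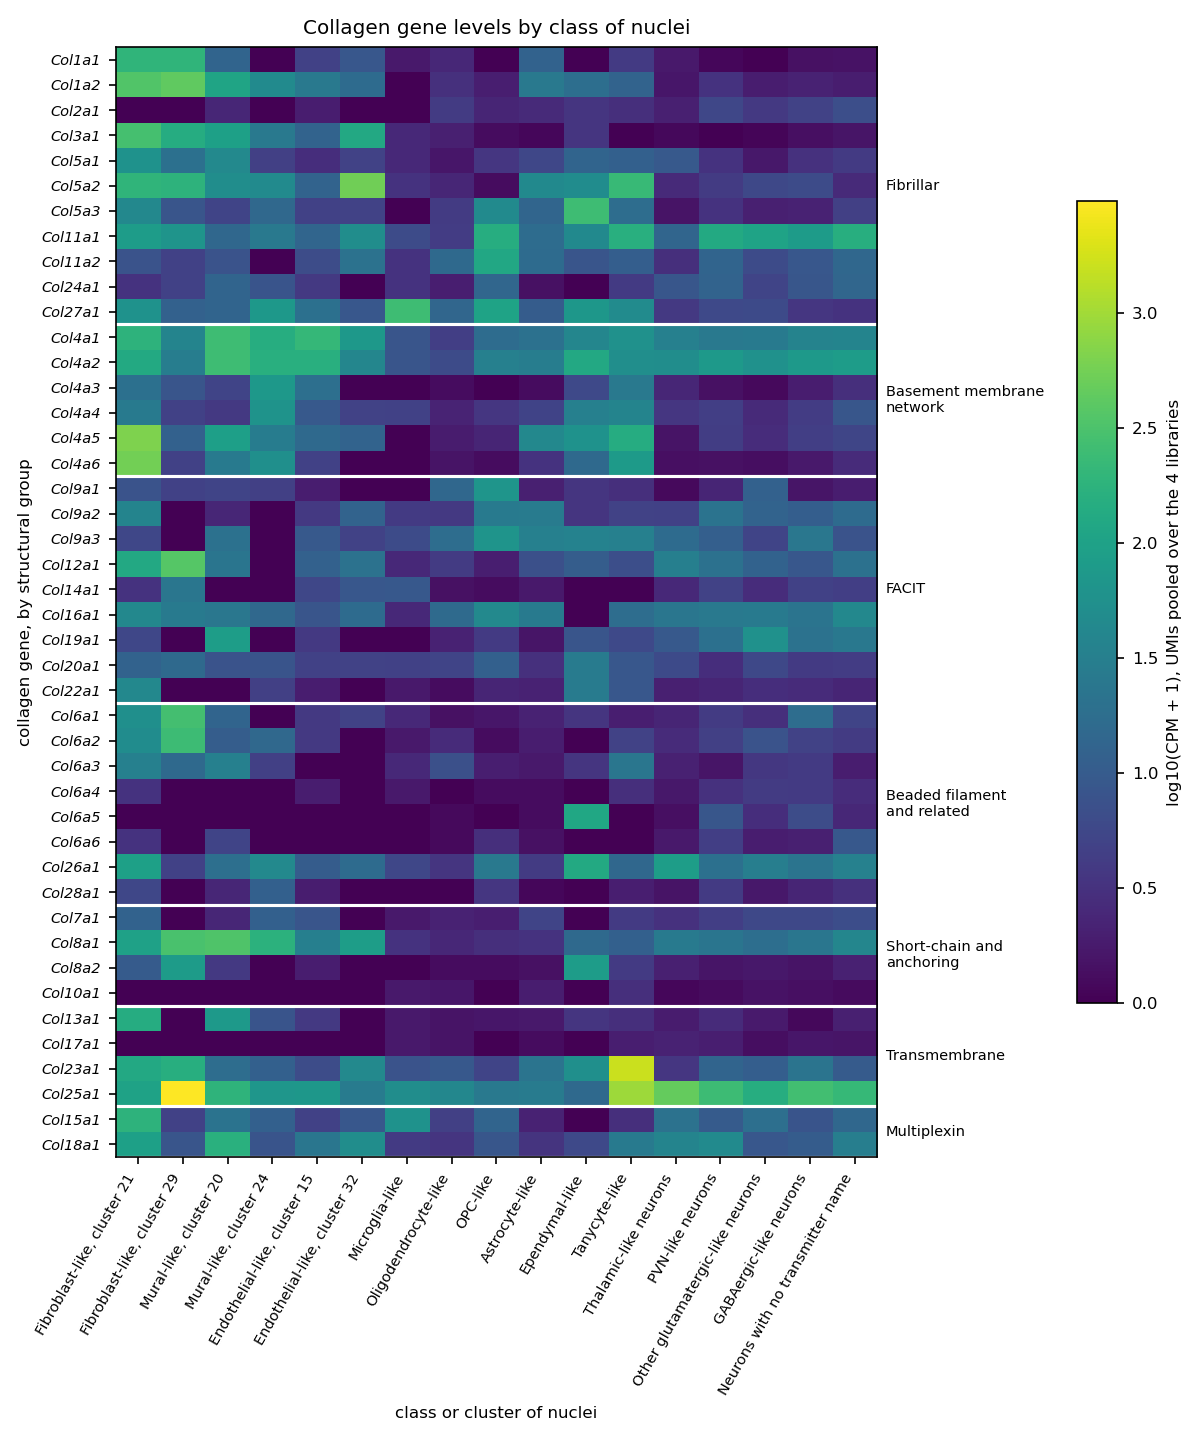
Level of each collagen gene (rows, grouped by protein class) in each class or cluster of nuclei (columns), as log10 of CPM plus 1 with UMIs pooled over the 4 libraries. The 15 genes led by the fibroblast-like class stand beside the sets led by mural-like, tanycyte-like, ependymal-like and OPC-like nuclei.

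The type IV collagen genes were divided between cell classes. These 6 genes lie in head-to-head pairs, each pair read outward from a shared stretch of DNA. On GRCm38, Col4a1 (ENSMUSG00000031502; minus strand, chr8:11198423-11312826) and Col4a2 (ENSMUSG00000031503; plus strand, chr8:11312805-11449287) overlap at their starts. Col4a6 (ENSMUSG00000031273; minus strand, chrX:141165403-141474076) and Col4a5 (ENSMUSG00000031274; plus strand, chrX:141475385-141689234) start 1309 bases apart, and Col4a4 and Col4a3 on chromosome 1 start 72 bases apart. Whether counting used the strand is not given in the sources used here; the overlap of Col4a1 and Col4a2 spans 22 bases at the 5' ends, away from the 3' ends that the assay primes. The stretches before the starts of Col4a5 and Col4a6, the pair with the highest correlation of levels below, and the overlap of Col4a1 and Col4a2 are shown, from RefSeq's annotation of GRCm38.p6. The Col4a5 and Col4a6 stretches stop before the earlier of the starts in RefSeq and GENCODE, for Col4a5 that of GENCODE. Capitals mark a CCAAT box in Col4a5 and the letters GGGCGG, the core of an Sp1-type GC box, read on the other strand in Col4a6 and directly in the overlap of Col4a1 and Col4a2. In Col4a5 GGGCGG also occurs in the longer RefSeq window counted below (chrX:141475169-141475468), outside the stretch shown.
Col4a5, chrX:141475169-141475384, plus strand: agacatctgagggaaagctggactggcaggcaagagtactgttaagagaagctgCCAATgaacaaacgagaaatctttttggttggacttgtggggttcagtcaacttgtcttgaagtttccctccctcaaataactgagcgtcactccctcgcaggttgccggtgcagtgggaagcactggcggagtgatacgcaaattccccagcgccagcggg
Col4a6, chrX:141474077-141474326, minus strand: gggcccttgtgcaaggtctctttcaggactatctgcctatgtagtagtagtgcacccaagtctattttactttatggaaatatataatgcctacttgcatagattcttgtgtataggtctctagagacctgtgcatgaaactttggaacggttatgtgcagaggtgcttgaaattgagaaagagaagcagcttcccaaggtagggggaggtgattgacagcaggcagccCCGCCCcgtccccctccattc
Col4a1 and Col4a2 overlap, chr8:11312805-11312826, plus strand: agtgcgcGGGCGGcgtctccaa

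The letters were counted on both strands in windows from 250 bases before to 50 after each start, with 38 windows for the 35 collagen genes that RefSeq's table matched by symbol and 32851 windows in all. GGGCGG occurred in 60.5% of collagen windows and 35.7% of all windows. CCAAT occurred in 34.2% and 37.4%, the TATA-box letters TATAAA in 13.2% and 13.6%, and CACGTG, the E-box that clock factors can bind, in 0 of 38 and 7.15%. Each is a count of letters, not of bound sites. Across 35 clusters of nuclei, Pearson's r of log levels was 0.88 for Col4a5 and Col4a6, 0.78 for Col4a3 and Col4a4 and 0.60 for Col4a1 and Col4a2, with Spearman's rho of 0.77, 0.59 and 0.67. Col1a1 and Col1a2, which encode the chains of type I collagen but lie on different chromosomes, gave r of 0.83. Clusters share libraries and differ in depth, so these values are descriptions.

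Fibroblast-like nuclei (59 and 53 at ZT8, 27 and 32 at ZT20) fell into a pair of clusters with different collagens. Cluster 21, led by Ptgds, Cped1, Apod and Dcn, carried the basement membrane genes. Its Col4a6 level was 381 and 347 CPM at ZT8 and 1116 and 963 at ZT20, and its Col4a5 level 372 and 608 against 972 and 949. Cluster 29, led by Bnc2, Fbxl7, Slc38a2 and Slc47a1, had 1, 1, 0 and 1 Col4a5 UMIs and 0, 1, 0 and 0 Col4a6 UMIs in the same order of libraries. Col13a1, a transmembrane collagen of cell junctions, followed the same division, with 99.8 and 136 CPM at ZT8 and 126 and 248 at ZT20 in cluster 21 and no UMI in cluster 29. Col15a1, a multiplexin of basement membrane zones, stood at 81.7, 161, 324 and 261 CPM in cluster 21 and at 1, 0, 0 and 0 UMIs in cluster 29.

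Cluster 29 carried type VI collagen, Col12a1 and Col25a1 instead. Col25a1 stood at 3137 and 2845 CPM at ZT8 and 3815 and 2551 at ZT20 there, from 358, 286, 121 and 66 UMIs, against 90.7, 156, 0 and 41.3 CPM in cluster 21. No library of cluster 21 came near the lowest library of cluster 29. This made the fibroblast-like class the leading class of a gene known from neurons. Col6a1, a chain of the beaded filament, measured 254, 318, 315 and 193 CPM in cluster 29 and 9.07, 15.1, 126 and 165 in cluster 21, without overlap. Col12a1, a FACIT collagen of dense connective tissue, measured 254, 418, 378 and 618 CPM against 36.3, 65.4, 468 and 165, where ZT20 replicate 1 of cluster 21 lay within the range of cluster 29. The type I gene Col1a2 was present in both, at 333, 388, 662 and 734 CPM in cluster 29 and 218, 282, 486 and 605 in cluster 21. Clusters 21 and 29 were formed from these nuclei, so their differences carry no test.

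Mural-like nuclei, the pericytes and smooth muscle cells of vessel walls by their markers, came as a smooth muscle-type cluster 20 (leading genes Acta2, Myh11 and Tagln; 83 and 80 nuclei at ZT8, 2 and 3 at ZT20) and a pericyte-type cluster 24 (Atp13a5, Pdgfrb and Abcc9; 23, 32, 21 and 17). Both carried Col4a1 and Col4a2, the chains of the common vascular basement membrane network. In cluster 20 Col4a1 measured 191 and 323 CPM at ZT8 and Col4a2 210 and 282. In cluster 24 Col4a1 measured 52.2 and 69.4 CPM at ZT8 and 259 and 285 at ZT20, and Col4a2 118, 127, 168 and 261. Col18a1, the multiplexin whose end fragment is endostatin, separated these clusters, with 152 and 177 CPM in the ZT8 libraries of cluster 20 and 0, 1, 0 and 1 UMIs in cluster 24.

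Endothelial-like nuclei also came in a pair of clusters. Cluster 15, with the capillary genes Flt1, Slco1a4 and Cldn5 (65 and 78 nuclei at ZT8, 49 and 53 at ZT20), had Col4a1 at 224, 140, 285 and 241 CPM and Col4a2 at 173, 157, 134 and 156. Cluster 32, led by Mgp, Eln, Mecom and Bmx (19 and 23 nuclei at ZT8, then 2 and 1), was high in Col5a2, a chain of the fibril-forming type V collagen. It measured 490, 588, 648 and 1104 CPM there (68, 64, 4 and 2 UMIs) against 22.1, 10.0, 11.2 and 4.22 in cluster 15. Col3a1, the type III fibril gene of vessel walls, measured 115 and 147 CPM in the ZT8 libraries of cluster 32.

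Col23a1 marked the nuclei named tanycyte-like. Tanycytes are radial glia-like cells of the third ventricle wall. The name is weak: 6 of its 10 markers were detected, none of them was among the 10 leading genes, and the summed astrocyte list in the ZT20 libraries (2067 and 2595 CPM) was above the summed tanycyte list (711 and 1450). Col23a1, which encodes a transmembrane collagen (ENSMUSG00000063564; plus strand, chr11:51289920-51583918), was itself the leading gene, at 1329 and 2049 CPM at ZT20 from 847 and 755 UMIs. After each nucleus was thinned to 1000 UMIs, 134 of 173 tanycyte-like nuclei at ZT20 (77.5%; 96.0% before thinning, median 3741.5 UMIs) held a Col23a1 UMI. Oligodendrocyte-like nuclei held one in 0.573% (1.52% before thinning, median 3161 UMIs). The 2 tanycyte-like nuclei at ZT8 stood at 1098 and 1023 CPM for the summed fibroblast list, so no ZT8 level is read. In fibroblast-like nuclei Col23a1 measured 120 and 100 CPM at ZT8 and 264 and 172 at ZT20, and in ependymal-like nuclei 11.1, 58.9, 58.3 and 85.1. Col25a1 was also found in tanycyte-like nuclei, at 753 and 1268 CPM at ZT20, as was Col5a2 at 173 and 296, Col11a1 at 127 and 212 and the paired Col4a3 and Col4a4 at 15.7 and 40.7 and at 26.7 and 54.3.

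Ependymal-like nuclei, the ciliated cells of the ventricle wall (11 and 14 at ZT8, 17 and 13 at ZT20), led for Col5a3, Col6a5, Col8a2, Col20a1, Col22a1 and Col26a1. Col5a3, a minor type V chain, was even over the libraries at 311, 229, 233 and 231 CPM. Col6a5 measured 133, 91.7, 105 and 170 CPM and Col26a1 122, 164, 175 and 36.5. With under 15 nuclei in 3 of the libraries this class was described and not tested.

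Among glia, OPC-like nuclei led for Col9a1, Col9a3, Col11a2, Col16a1 and Col24a1. Types IX and XI are best known as the collagens that coat and size the fibrils of cartilage. Col9a1 measured 52.4, 73.0, 56.5 and 71.1 CPM in OPC-like nuclei and 14.8, 14.1, 12.8 and 10.1 in oligodendrocyte-like nuclei, without overlap. Col11a2 measured 127, 135, 99.2 and 132 CPM and Col11a1 120, 147, 164 and 149 in OPC-like nuclei. Microglia-like nuclei led for Col27a1, a minor fibrillar collagen, at 304, 224, 256 and 235 CPM, and OPC-like nuclei had 79.4, 79.4, 110 and 143. Astrocyte-like nuclei led narrowly for Col9a2, at 38.9, 28.9, 18.9 and 22.3 CPM, and carried Col4a5 at 43.2, 40.9, 42.1 and 36.8. Pooled over libraries, Col9a2 stood at 27.0 CPM in astrocyte-like and 25.7 in OPC-like nuclei.

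Col25a1 (ENSMUSG00000058897; plus strand, chr3:130131501-130599877) was found in every one of the 37 neuron-like clusters, from 10.2 to 1555 CPM with a median of 156. The highest was thalamic-like cluster 5, at 1613 and 1600 CPM at ZT8 and 1338 and 1382 at ZT20. Thalamic-like cluster 2 followed at 605, 735, 763 and 910, its libraries below all of cluster 5. Cluster 21 of the neurons, without a transmitter name and led by Tafa1 and Npsr1, stood at 669, 651, 773 and 614, overlapping cluster 2. After thinning to 1000 UMIs per nucleus, 17.3% of neuron-like nuclei at ZT8 and 16.9% at ZT20 held a Col25a1 UMI (50.5 and 50.7% before thinning, medians of 14049 and 12359 UMIs). Oligodendrocyte-like nuclei, which should lack it, held one in 4.14 and 2.58% (13.1 and 8.94% before thinning, medians of 2963 and 3161 UMIs). Col23a1 was rarer in neurons, in 0.729 and 1.18% of thinned nuclei at ZT8 and ZT20, against 0.645 and 0.573% in oligodendrocyte-like nuclei, so its neuronal share is close to background outside GABAergic-like neurons, where it was 2.02 and 1.86% (medians of 10439 and 10151 UMIs). Neuron cluster 33, a GABAergic-like cluster with Meis2, Pbx3 and Tshz1, had the highest neuronal Col23a1 level, at 183, 72.5, 107 and 81.3 CPM against a median of 7.96 over clusters. Levels of Col23a1 and Col25a1 over 35 clusters gave r of 0.15 and rho of 0.06.

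**Figure D2:**
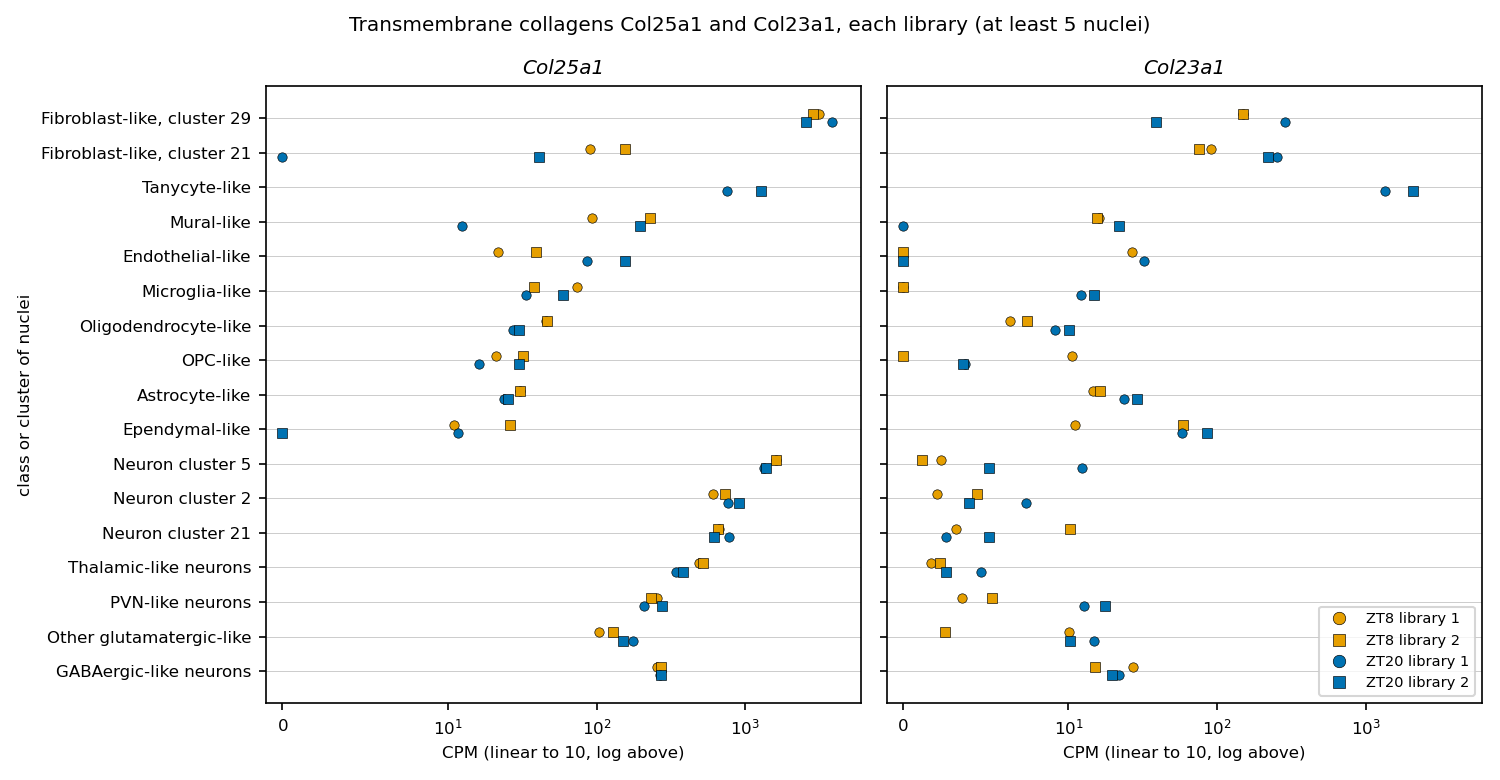
Levels (CPM, on an axis that is linear to 10 and logarithmic above) of the transmembrane collagens Col25a1 and Col23a1 in each class or cluster of nuclei, with 1 point per library of at least 5 nuclei, coloured by time. Col25a1 spans fibroblast-like, tanycyte-like and neuron-like nuclei, while Col23a1 is highest in the tanycyte-like nuclei of ZT20, at 1329 and 2049 CPM.

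Several other collagens were high in 1 or a few neuron clusters. Col11a1 (ENSMUSG00000027966), the type XI chain, measured 473 and 378 CPM at ZT8 and 394 and 382 at ZT20 in cluster 19, which had no transmitter name and Klhl1 and Nfia among its leading genes, against a median of 59.0 over 37 clusters. Clusters 34 and 26 followed, with pooled Col11a1 levels of 373 and 237 CPM. Col18a1 measured 158, 137, 185 and 146 CPM in thalamic-like cluster 4 against a median of 10.8. Col12a1 measured 95.0, 106, 119 and 129 CPM in thalamic-like cluster 2 against 7.09. The levels given here per library varied little over the 4 libraries.

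Col26a1, a collagen-like protein with an EMI domain, measured 157, 175, 192 and 166 CPM in thalamic-like cluster 22 and 143, 151, 156 and 158 in thalamic-like cluster 0 (median 28.0). The type VI chain gene Col6a1 was highest in GABAergic-like cluster 37, at a pooled level of 164 CPM, from 2 and 0 UMIs in the 1 and 2 nuclei at ZT8 and 44 and 48 UMIs in the 27 and 21 at ZT20. GABAergic-like cluster 33 followed for Col6a1, at 67.7, 129, 159 and 133 CPM against a median of 2.55 over clusters. Col8a1, a short-chain network collagen, measured 167, 206, 197 and 138 CPM in GABAergic-like cluster 36 against 21.2. Col9a1 was nearly absent from neurons (median 0.438) except glutamatergic-like cluster 27, at 29.7, 60.9, 83.7 and 85.5 CPM.

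Between ZT8 and ZT20, the first comparison summed all kept nuclei of a library and tested ZT20 against ZT8 with edgeR's quasi-likelihood test, its p-values adjusted by the Benjamini-Hochberg method across every tested gene. An adjusted p under 0.05 is termed a call. Of the 44 collagen genes 25 were called, 11 higher and 14 lower, where 47.7% of all 21040 genes were called, so the share of collagens was near the background. The median log2 change was -0.06 over collagens and 0.00 over all genes. Col25a1 measured 342 and 355 CPM at ZT8 and 251 and 254 at ZT20, lower in both ZT20 libraries (log2 change -0.50 ± 0.02 SE, edgeR adjusted p = 6.1e-15). Col23a1 measured 8.92 and 6.94 against 29.1 and 25.8 CPM, higher in both ZT20 libraries (1.76 ± 0.11, adjusted p = 2.1e-06 with edgeR). Of its 467, 433, 1654 and 1422 UMIs, the tanycyte-like nuclei held 19, 26, 847 and 755. Col11a1 (0.54 ± 0.04), Col6a1 (0.95 ± 0.10), Col6a5 (1.09 ± 0.15) and Col4a2 (0.20 ± 0.03) were higher too, and Col26a1 (-0.46 ± 0.04), Col15a1 (-0.60 ± 0.06), Col3a1 (-1.07 ± 0.19), Col18a1 (-0.25 ± 0.05), Col5a1 (-0.47 ± 0.09), Col8a1 (-0.36 ± 0.06) and Col13a1 (-0.89 ± 0.19) lower (log2 change ± SE, edgeR adjusted p 6.2e-12 to 0.000467). For each of these genes both ZT20 libraries lay on 1 side of both ZT8 libraries, and each call held with any 1 library left out. These genes were picked as called, and the share of all genes with such separation is not given. Here and below, a lack of overlap between times thus describes the values and adds no support to a call.

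The other type IV genes changed less firmly in all nuclei. Col4a6 was higher (0.49 ± 0.14, edgeR adjusted p = 0.00481), as was Col4a5 (0.32 ± 0.12, 0.0462), and both calls ended without ZT8 replicate 1, at 0.35 and 0.11. Col4a1 was lower (-0.16 ± 0.05, edgeR adjusted p = 0.00603), a call that ended without ZT20 replicate 2 at -0.09, and Col4a4 was lower (-0.30 ± 0.11, 0.0279) until ZT8 replicate 2 (-0.19) or ZT20 replicate 2 (-0.26) was left out. Col4a3 did not pass (0.03 ± 0.20). DESeq2 called 14 of the 25 collagens, without these 4 type IV genes. In the nuclei of named classes alone edgeR called 20 collagens, 11 higher and 9 lower, and 43.6% of all genes.

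Within neuron-like nuclei 16 of 43 collagens tested were called, 9 higher and 7 lower, where 43.0% of all genes were called, so the collagens again lay near the background. Col25a1 was lower at ZT20, with 396 and 421 CPM at ZT8 and 275 and 289 at ZT20 (log2 change -0.59 ± 0.03, edgeR adjusted p = 2.1e-10). Col11a1 was higher, at 46.7 and 48.6 against 76.5 and 73.3 CPM (0.60 ± 0.04, edgeR adjusted p = 7.7e-11). Col6a1 was higher, at 2.59 and 3.33 against 7.27 and 7.61 CPM (1.26 ± 0.12, edgeR adjusted p = 3.9e-08), and Col4a2 at 55.6 and 57.1 against 69.1 and 69.3 (0.24 ± 0.03, 6.1e-06). None of these 4 overlapped between times. Col6a5 (1.40 ± 0.17), Col27a1 (0.85 ± 0.14), Col23a1 (0.90 ± 0.13), Col4a5 (0.78 ± 0.18) and Col9a2 (0.33 ± 0.08) were also higher. Col26a1 (-0.44 ± 0.04), Col15a1 (-0.61 ± 0.07) and Col18a1 (-0.27 ± 0.07) were lower (edgeR adjusted p 5.9e-09 to 0.00943 over these 8), and each of the calls named so far held with any library left out. Col5a1 (-0.38, lost without ZT8 replicate 1 at -0.32), Col4a1 (-0.15, lost without ZT8 replicate 2 at -0.14 or ZT20 replicate 2 at -0.09), Col17a1 (-0.70, lost without ZT8 replicate 1 at -0.36 or ZT20 replicate 1 at -0.53) and Col7a1 (0.36, lost without ZT8 replicate 2 at 0.30 or ZT20 replicate 1 at 0.31) were less firm. Col4a4 (-0.23 ± 0.13), Col4a6 (0.44 ± 0.31) and Col4a3 (0.04 ± 0.24) did not pass. For Col23a1, 0.729 and 1.18% of thinned neuron-like nuclei at ZT8 and ZT20 held a UMI, as given above.

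The mixture of neurons moved with these values. The summed thalamic list in neuron-like nuclei stood at 4042 and 4107 CPM at ZT8 against 2847 and 2760 at ZT20, the GABAergic list at 217 and 212 against 320 and 335, and the PVN list at 20.1 and 33.1 against 211 and 197. When equal numbers were sampled from each neuron cluster in all libraries (1597 nuclei per library), 10 of 42 collagens were called, 6 higher and 4 lower, where 22.3% of genes were called. The thalamic list then stood at 3704 and 3744 CPM at ZT8 against 3828 and 3877 at ZT20. The GABAergic list stood at 232 and 233 against 246 and 264. The PVN list still differed, at 24.3 and 29.2 against 130 and 125 CPM, and its part in the calls below was not tested. Col25a1 then measured 331 and 329 CPM at ZT8 and 291 and 317 at ZT20, a change of -0.11 ± 0.03 (edgeR adjusted p = 0.000722) in place of -0.59. Col27a1 (1.38 ± 0.19), Col23a1 (0.71 ± 0.13), Col4a2 (0.17 ± 0.04), Col6a5 (0.72 ± 0.22) and Col6a1 (0.46 ± 0.16) stayed higher (edgeR adjusted p 6.9e-10 to 0.0196). Col11a1 and Col15a1 no longer passed, and Col26a1 (0.11), Col18a1 (0.02) and Col9a2 (-0.01) turned sign without passing. Col19a1, a FACIT collagen made by subsets of interneurons, was called lower (-0.33 ± 0.08) and so was Col4a4 (-0.69 ± 0.17), with edgeR adjusted p of 0.00072 and 0.00103.

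**Figure D3:**
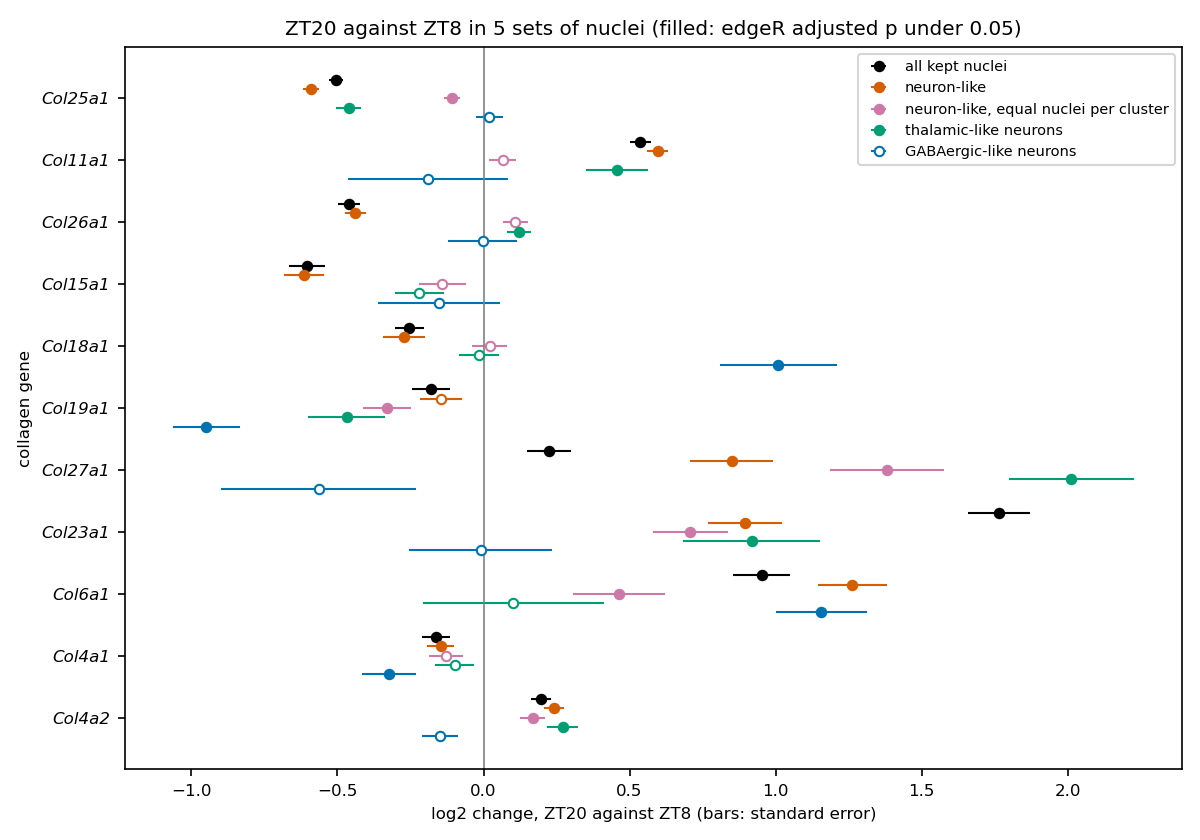
Log2 change from ZT8 to ZT20 with its standard error for selected collagen genes in all kept nuclei, neuron-like nuclei, neuron-like nuclei with equal numbers per cluster, thalamic-like and GABAergic-like neurons, with filled points for genes past the edgeR threshold. Col25a1 moves from -0.59 in neuron-like nuclei to -0.11 with equal numbers and 0.02 in GABAergic-like neurons, while Col27a1 reaches 2.01 in thalamic-like neurons.

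In thalamic-like neurons 12 of 40 collagens were called, 9 higher and 3 lower, where 19.2% of all genes were called. Col27a1 (ENSMUSG00000045672) showed the largest called change, from 1.48 and 1.22 CPM at ZT8 to 4.99 and 5.80 at ZT20 (2.01 ± 0.21, edgeR adjusted p = 2.0e-11). Its ZT20 libraries were both well above both ZT8 libraries. Neuron cluster 2, the highest in Col27a1 with 189 UMIs, made up 160 of 1279 and 191 of 1379 thalamic-like nuclei at ZT8. At ZT20 that cluster made up 142 of 799 and 145 of 750. The part of this makeup in the change of the class was not tested, and the change within cluster 2 is given below. Col25a1 measured 486 and 520 CPM against 344 and 378, lower in both ZT20 libraries (-0.46 ± 0.04, edgeR adjusted p = 1.8e-05). Cluster 5, the highest in Col25a1, made up 190 of 1279 and 217 of 1379 thalamic-like nuclei at ZT8 against 71 of 799 and 59 of 750 at ZT20. Col4a2 was higher, at 46.3 and 48.0 against 57.1 and 55.5 CPM (0.27 ± 0.05, edgeR adjusted p = 5.3e-05), and Col24a1, a minor fibrillar collagen, at 5.42 and 6.98 against 9.66 and 9.36 (0.62 ± 0.13, 0.000228). Col12a1 (0.37 ± 0.10, edgeR adjusted p = 0.0194) also held with any library left out. Col11a1 (0.46, lost without ZT20 replicate 2 at 0.29), Col23a1 (0.92, lost without ZT20 replicate 1 at 0.40) and Col19a1 (-0.47, lost without ZT8 replicate 2 at -0.35 or ZT20 replicate 2 at -0.30) depended on single libraries. After thinning to 1000 UMIs, 2 of 2657 thalamic-like nuclei at ZT8 and 6 of 1549 at ZT20 held a Col23a1 UMI. DESeq2 called Col27a1, Col25a1, Col4a2 and Col12a1. The other type IV genes tested, Col4a1 (-0.10 ± 0.07), Col4a3 (-0.15 ± 0.32), Col4a4 (-0.48 ± 0.24) and Col4a5 (-0.03 ± 0.47), did not pass.

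In GABAergic-like neurons 7 of 34 collagens were called, 2 higher and 5 lower, where 19.9% of all genes were called. Different clusters held these nuclei at the 2 times: cluster 3 had 17 and 17 at ZT8 against 291 and 271 at ZT20, cluster 28 had 67 and 93 against 8 and 5, and cluster 37, the highest in Col6a1, had 1 and 2 against 27 and 21. The part of this makeup in the changes below was not tested. Col19a1 was lower, at 27.4 and 28.6 CPM at ZT8 and 14.5 and 14.7 at ZT20 (-0.95 ± 0.11, edgeR adjusted p = 5.0e-07). Col6a1 was higher, at 7.10 and 11 against 20.8 and 20.4 CPM (1.16 ± 0.16, 3.1e-06 with edgeR), and Col18a1 at 6.23 and 5.19 against 13 and 10 (1.01 ± 0.20, 0.000502). Col8a1 was lower, at 32.6 and 29 against 21.9 and 13.9 CPM (-0.79 ± 0.20, edgeR adjusted p = 0.0352). Times did not overlap for these 4 genes, and DESeq2 called the same 4. Col11a2 (-0.83, lost without ZT8 replicate 1 at -0.59), Col4a1 (-0.32, lost without ZT8 replicate 2 at -0.21 or ZT20 replicate 2 at -0.26) and Col22a1 (-1.46, lost without ZT8 replicate 2 at -1.13 or ZT20 replicate 2 at -0.92) were called by edgeR alone. Col25a1 measured 256 and 270 CPM at ZT8 and 268 and 270 at ZT20 and did not pass (0.02 ± 0.05, edgeR adjusted p = 0.816), and neither did Col23a1 (-0.01 ± 0.24), Col4a2 (-0.15 ± 0.06), Col4a4 (-0.28 ± 0.30) or Col4a5 (0.80 ± 0.31).

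The difference between these neuron classes was tested as an interaction of class and time. It passed for 7 of 39 collagens, 3 with a difference above 0 (the change in GABAergic-like minus that in thalamic-like neurons) and 4 below, where 7.91% of genes passed. For Col25a1 the difference was 0.49 ± 0.05 (edgeR adjusted p = 4.0e-09), and for Col27a1 it was -2.58 ± 0.41. It lay above 0 for Col6a1 (1.06) and Col18a1 (1.03) and below 0 for Col4a2 (-0.42), Col5a1 (-1.32) and Col8a1 (-0.63). As given above, the clusters that make up each class differed between the times, and their part in these differences was not tested.

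In PVN-like neurons 2 of 17 collagens were called, both higher, where 3.06% of genes were called. These neurons were clusters 10 and 23, and cluster 23 held 4 and 9 nuclei at ZT8 against 108 and 88 at ZT20. Col18a1 measured 32.2 and 27.0 CPM at ZT8 and 55.4 and 49.2 at ZT20 (0.86 ± 0.20, edgeR adjusted p = 0.017), lost without ZT8 replicate 2 (0.72) or ZT20 replicate 1 (0.77). Col23a1 measured 3.58 and 5.40 against 12.7 and 17.5 CPM (1.71 ± 0.45, edgeR adjusted p = 0.04), lost without ZT8 replicate 1 (1.49), ZT8 replicate 2 (2.06) or ZT20 replicate 2 (1.47). After thinning to 1000 UMIs, only 1 of 174 PVN-like nuclei at ZT8 and 2 of 432 at ZT20 held a Col23a1 UMI. Their shares, 0.575 and 0.463%, were close to the 0.645 and 0.573% of oligodendrocyte-like nuclei (5.17 and 8.80% of PVN-like nuclei before thinning). Col25a1 did not pass there (0.00 ± 0.12), and DESeq2 called 0 collagens in PVN-like neurons.

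Glutamatergic-like neurons outside the thalamic-like and PVN-like clusters had 4 of 21 called, 3 higher and 1 lower, where 7.48% of genes were called. Col19a1 was lower, at 86.0 and 71.0 CPM at ZT8 and 40.5 and 49.4 at ZT20 (-0.78 ± 0.15, edgeR adjusted p = 0.000329), and Col8a1 higher, at 4.17 and 9.13 against 26.4 and 19.5 (1.65 ± 0.32, 0.000429). Col25a1 was higher here, at 104 and 130 against 176 and 150 CPM (0.44 ± 0.11, edgeR adjusted p = 0.00618), lost without ZT8 replicate 1 or ZT20 replicate 1 (0.32 in either). Neurons without a transmitter or regional name had 3 of 35 called, where 8.78% of genes were called: Col15a1 (-0.76 ± 0.16), Col18a1 (-0.52 ± 0.11) and Col11a2 (-0.54 ± 0.16), all lower. Not all of these calls held without ZT20 replicate 2. Col18a1, called higher in GABAergic-like and PVN-like neurons, was thus called lower here, a difference that was not itself tested. All calls of this paragraph are from edgeR, and DESeq2 called 0 collagens in either set of neurons.

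Single neuron clusters were tested where each library held at least 50 nuclei. In 15 such clusters 23 of 223 collagen tests were called, 14 higher and 9 lower, where 3.03% of all tests in these clusters were calls and single clusters ranged from 0.231 to 7.71%. Col25a1 was called lower in 4 clusters and higher in 1, and its change lay below 0 in 8 of 15. GABAergic-like cluster 8 had 603 and 964 CPM at ZT8 and 263 and 297 at ZT20 (-1.47 ± 0.22, edgeR adjusted p = 0.0175), and GABAergic-like cluster 11 had 223 and 217 against 463 and 305 (0.82 ± 0.16, 0.00846), both without overlap and both with any library left out, where 3.39 and 3.50% of genes were called. Col25a1 in the high cluster 5 changed by -0.26 ± 0.05 (edgeR adjusted p = 0.000481), lost without ZT8 replicate 1 at -0.25, where 6.66% of genes were called. Col27a1, tested in thalamic-like cluster 2 only, measured 8.64 and 5.47 CPM at ZT8 and 24.4 and 27.5 at ZT20 (1.96 ± 0.24, edgeR adjusted p = 3.1e-06), where 3.35% of genes were called. Col19a1 lay below 0 in 11 of 13 clusters and was called lower in 2. In cluster 10, PVN-like with Sim1 and Reln, Col18a1 measured 30.4 and 31.7 against 72.7 and 55.4 CPM (1.08 ± 0.22, edgeR adjusted p = 0.0146), lost without ZT20 replicate 1 at 0.87, where 1.78% of genes were called.

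In fibroblast-like nuclei 4 of 20 collagens tested were called, all higher at ZT20, where 0.982% of genes were called higher and 2.26% in either direction. The median log2 change was 1.03 over these 20 and -0.01 over all genes tested. Collagens that passed the filter on low counts could do so through a high ZT20 level, so the median and the count of calls describe those 20 only. Col4a6 measured 187 and 234 CPM at ZT8 and 710 and 710 at ZT20 (1.70 ± 0.27, edgeR adjusted p = 0.00121), and held with any library left out and with DESeq2 (adjusted p = 0.0103). Col1a1, a chain of type I collagen, measured 93.6 and 157 against 309 and 406 CPM (1.45 ± 0.32, edgeR adjusted p = 0.0169). Col4a2 measured 49.0 and 60.1 against 172 and 213 CPM (1.76 ± 0.40, edgeR adjusted p = 0.0203), and Col4a1 40.1 and 83.5 against 447 and 162 (2.17 ± 0.46, 0.022). The times did not overlap for any of these 4. Without 1 library the calls ended for Col1a1 (1.11 without ZT8 replicate 1, 1.22 without ZT20 replicate 2), Col4a2 (1.60 without ZT8 replicate 1, 1.57 without ZT20 replicate 2) and Col4a1 (1.29 without ZT20 replicate 1), and DESeq2 did not call these 3 (adjusted p of 0.508, 0.607 and 0.160). Col4a5 (1.10 ± 0.32), Col23a1 (0.94 ± 0.35) and Col25a1 (-0.41 ± 0.32) did not pass.

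Of the fibroblast-like nuclei, cluster 29 made up 30 and 17 at ZT8 against 8 and 10 at ZT20, so cluster 21 was also tested alone. There 6 of 15 collagens were called, all higher, where 1.25% of genes were called higher and 3.35% in either direction. As in the class, a collagen could pass the filter on low counts through a high ZT20 level. The count and its direction thus describe those 15 only. Col1a1 measured 54.4 and 90.5 CPM at ZT8 and 342 and 550 at ZT20 (2.50 ± 0.39, edgeR adjusted p = 0.00172; DESeq2 adjusted p = 0.0325), and Col4a6 changed by 1.46 ± 0.30 (edgeR adjusted p = 0.0097; DESeq2 adjusted p = 0.0814). Both calls held with any library left out. Col3a1 (1.49, lost without ZT8 replicate 2 at 1.29 or ZT20 replicate 2 at 1.11), Col12a1 (2.41, lost without ZT20 replicate 1 at 1.53) and Col4a2 (1.88, lost without ZT20 replicate 1 at 1.88 or ZT20 replicate 2 at 1.83) were less firm. Col6a1, with 1, 3, 7 and 12 UMIs, was called in none of the 3 fits it entered with 1 library left out. Col4a1 (2.07 ± 0.55), Col4a5 (0.89 ± 0.31) and Col23a1 (1.46 ± 0.43) did not pass. In cluster 21 the summed fibroblast list stood at 6434, 6165, 7289 and 7659 CPM, the astrocyte list at 6025, 4496, 3293 and 3479 and the neuron list at 2486, 2917, 1782 and 1733. The astrocyte and neuron lists were lower in both ZT20 libraries, and the part of these lists in the result was not tested.

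**Figure D4:**
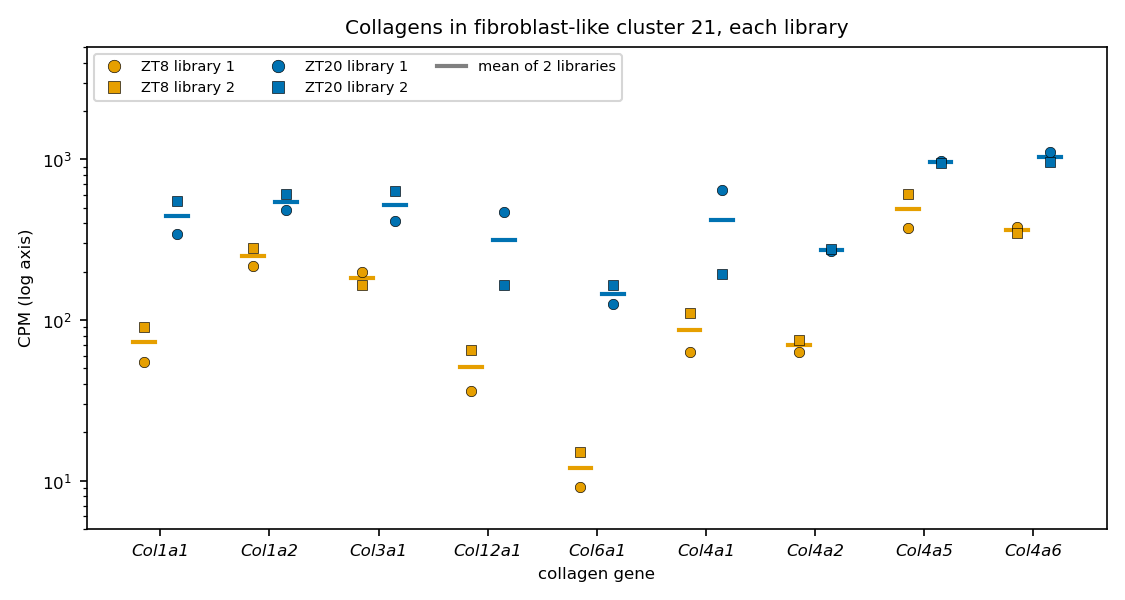
Levels (CPM, log axis) of collagen genes in fibroblast-like cluster 21, with 1 point per library coloured by time and a line at the mean of each time. For Col1a1 and Col4a6 both ZT20 libraries (342 and 550 CPM, 1116 and 963 CPM) lie above both ZT8 libraries (54.4 and 90.5, 381 and 347).

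In endothelial-like nuclei 3 of 6 collagens were called, 1 higher and 2 lower, where 3.40% of genes were called. Col5a2 measured 180 and 134 CPM at ZT8 and 32.4 and 12.6 at ZT20 (-2.85 ± 0.42, edgeR adjusted p = 0.000112), and Col3a1 46.3 and 45.2 against 10.8 and 4.19 (-2.63 ± 0.69, 0.0292). Both were high in cluster 32, with 19 and 23 nuclei in the ZT8 libraries against 2 and 1 later, and in cluster 15 alone neither was among the genes tested. The Col3a1 call ended without ZT8 replicate 1 (-2.61), ZT8 replicate 2 (-2.65) or ZT20 replicate 2 (-2.05). Col25a1 was higher, at 21.9 and 39.3 against 86.4 and 155 CPM (1.97 ± 0.38, edgeR adjusted p = 0.00218), lost without ZT20 replicate 2 at 1.45. Before thinning, 12.97% of endothelial-like nuclei at ZT8 and 13.33% at ZT20 held a Col25a1 UMI, against 13.1 and 8.94% of oligodendrocyte-like nuclei. After thinning to 1000 UMIs, 6 of 158 endothelial-like nuclei at ZT8 and 7 of 86 at ZT20 held one. The difference in these shares was not tested. In cluster 15 alone Col25a1 measured 22.1 and 40 against 89.4 and 156 CPM (1.95 ± 0.42, edgeR adjusted p = 0.0254), the single call among 3 collagens tested, where 0.482% of genes were called. That call ended without ZT8 replicate 1 (1.64) or ZT20 replicate 2 (1.46). Col4a1 (0.81 ± 0.25) and Col4a2 (0.14 ± 0.27) did not pass in the class. DESeq2 called 0 collagens in the class and 0 in cluster 15 alone.

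In mural-like nuclei 1 of 12 collagens was called, where 2.25% of genes were called. Col18a1 counted 55 and 65 UMIs in the ZT8 libraries against 0 and 1 (edgeR adjusted p = 0.0299), and the call ended without ZT8 replicate 1, ZT8 replicate 2 or ZT20 replicate 1. Smooth muscle-type cluster 20, where Col18a1 was high, held 83 and 80 nuclei in the ZT8 libraries against 2 and 3 in those of ZT20. Col4a1 (0.12 ± 0.40) and Col4a2 (-0.11 ± 0.40) did not pass. With DESeq2, 0 collagens were called in mural-like nuclei. In the pericyte-type cluster 24 alone edgeR called 0 of 3 collagens and 0 of 1893 genes, with 1 of the 3 collagens, Col4a1, at an unadjusted p under 0.05 (log2 change 2.09 ± 0.43, edgeR adjusted p = 0.694, from 4, 6, 20 and 12 UMIs).

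Few glial collagens passed the edgeR test between the times. DESeq2 called 0 collagens in astrocyte-like, oligodendrocyte-like, OPC-like and microglia-like nuclei alike. Astrocyte-like nuclei had 2 of 17 called, both higher, where 5.95% of genes were called. Col5a2 measured 33.4 and 35.5 CPM at ZT8 and 56.2 and 47.1 at ZT20 (0.64 ± 0.18, edgeR adjusted p = 0.0226), lost without ZT8 replicate 1 (0.60), ZT8 replicate 2 (0.69) or ZT20 replicate 1 (0.50). Col23a1 measured 14.6 and 16.2 against 23.8 and 29 CPM (0.82 ± 0.25, edgeR adjusted p = 0.0467) and was lost without any 1 library (0.68 to 0.96). Oligodendrocyte-like nuclei had 2 of 11 called, both lower, where 10.5% of genes were called. Col25a1 measured 45.8 and 46.7 against 27.6 and 30.3 CPM (-0.66 ± 0.17, edgeR adjusted p = 0.00364), lost without ZT20 replicate 1 at -0.59. The summed thalamic list in the same nuclei stood at 583 and 612 CPM at ZT8 and 433 and 464 at ZT20, and its part in this result was not tested. Col6a3, with 26, 25, 5 and 3 UMIs, was the other (edgeR adjusted p = 0.00523), lost without ZT8 replicate 1, ZT20 replicate 1 or ZT20 replicate 2. OPC-like nuclei had 1 of 13 called, where 1.17% of genes were called, which was Col27a1 (0.70 ± 0.18, edgeR adjusted p = 0.0212). That call ended without ZT8 replicate 1 (0.70), ZT8 replicate 2 (0.71) or ZT20 replicate 2 (0.49). In microglia-like nuclei edgeR called 0 of 3, with 0 at an unadjusted p under 0.05, where 0.752% of genes were called.

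GABAergic-like neurons were compared with all glutamatergic-like neurons within the same libraries, with the library in the model. Of 39 collagens 27 were called, 15 higher and 12 lower in GABAergic-like neurons, where 49.6% of all genes were called. Col6a1 was higher, at 7.10, 11, 20.8 and 20.4 CPM in GABAergic-like and 1.46, 1.23, 1.27 and 2.30 in glutamatergic-like neurons (3.01 ± 0.22, edgeR adjusted p = 9.4e-06). Col26a1 was lower, at 22.0, 19.5, 21.5 and 20.2 against 85.4, 86.8, 82.7 and 78.1 CPM (-2.19 ± 0.05, edgeR adjusted p = 1.0e-10), and Col12a1 at 8.31, 5.04, 9.24 and 8.03 against 25.4, 32.8, 32.6 and 33.4 (-2.20 ± 0.13, 3.4e-06). The classes did not overlap for these 3 genes. Col9a3 (0.46 ± 0.07), Col4a5 (1.78 ± 0.28), Col6a5 (1.94 ± 0.28), Col14a1 (0.99 ± 0.18) and Col2a1 (1.11 ± 0.22) were also higher, and Col15a1 (-1.35 ± 0.10), Col5a1 (-2.12 ± 0.22), Col20a1 (-0.95 ± 0.16), Col13a1 (-2.24 ± 0.45) and Col18a1 (-2.27 ± 0.25) lower (edgeR adjusted p 5.1e-07 to 0.00231), each with any library left out. Col23a1 was higher (2.18 ± 0.38, edgeR adjusted p = 0.0121), a call that ended without ZT8 replicate 2 at 2.08.

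Most glutamatergic-like nuclei were thalamic-like. Without the thalamic-like clusters 12 of 30 collagens were called, 6 in each direction, where 13.1% of genes were called. Col25a1 was lower in GABAergic-like neurons in the full comparison (-0.90 ± 0.18, edgeR adjusted p = 0.0204; -0.79 and lost without ZT8 replicate 2) and higher without the thalamic-like clusters (0.48 ± 0.05, 1.3e-05). Col6a1 (3.04 ± 0.30), Col9a3 (1.74 ± 0.15), Col23a1 (1.06 ± 0.23), Col4a1 (0.54 ± 0.10) and Col4a2 (0.31 ± 0.09) were higher and Col9a1 (-3.73 ± 0.36), Col18a1 (-1.36 ± 0.13), Col19a1 (-1.23 ± 0.11), Col15a1 (-1.21 ± 0.15), Col12a1 (-0.70 ± 0.16) and Col9a2 (-0.55 ± 0.15) lower there (edgeR adjusted p 1.2e-06 to 0.0351).

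Genes that fold, process, bind or accompany collagens were followed as a list of 64. In all kept nuclei 16 of 61 tested were called higher and 27 lower. Of all 21040 genes tested there, 5103 were called higher and 4932 lower, 47.7% in either direction. Synthesis and folding genes were mostly higher (10 higher, 2 lower of 19), with P3h2 (0.41 ± 0.05) and P3h3 (0.32 ± 0.04), which encode prolyl 3-hydroxylases. Basement membrane partners were lower in 13 of 14, with none higher, among them Lama2 (-0.59 ± 0.04), a laminin chain, and Agrn (-0.42 ± 0.03), agrin. In the same sums the endothelial marker list stood at 110 and 106 CPM at ZT8 against 63.9 and 74.1 at ZT20 and the mural list at 117 and 113 against 46.1 and 48.5, while mural-like nuclei were 1.75 and 1.72% of kept nuclei at ZT8 against 0.297 and 0.231% at ZT20. The part of these lists in the result was not tested. Within neuron-like nuclei 7 of 14 basement membrane partners were called lower and 0 higher, where 4200 of 19589 genes were called lower. In endothelial-like nuclei 0 of 10 tested were called, where 3.40% of genes were called. In mural-like nuclei 2 of 9 were called and in fibroblast-like nuclei 3 of 9, all higher, where 2.25 and 2.26% of genes were called. In all kept nuclei Sparc, a collagen-binding secreted protein (0.44 ± 0.03), and Itga10, a collagen receptor integrin (0.83 ± 0.07), were higher, and Tll1, a procollagen protease (-0.91 ± 0.05), and Ddr1, a collagen receptor kinase (-0.45 ± 0.04), lower (edgeR adjusted p 2.7e-14 to 3.4e-07 over these 8). In neuron-like nuclei 14 of 58 were called higher and 16 lower, where 43.0% of all genes were called in either direction, so the share was near the background. Among these were Itga10 (0.96 ± 0.08), Sparc (0.49 ± 0.07), P4hb (0.37 ± 0.05) and P3h3 (0.33 ± 0.05), all higher. Tll1 (-0.97 ± 0.04), Agrn (-0.42 ± 0.03), Colgalt1 (-0.41 ± 0.04) and Itga11 (-0.65 ± 0.08) were lower there (edgeR adjusted p 2.1e-12 to 7.5e-06).

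In fibroblast-like nuclei 4 of 26 such genes were called, all higher. In this class 0.982% of all genes were called higher and 2.26% in either direction. Here too, genes could pass the filter on low counts through a high ZT20 level. The 4 called genes are named after their values were seen. They were Lama1 (308 and 451 CPM at ZT8, 1180 and 1298 at ZT20; 1.66 ± 0.28, edgeR adjusted p = 0.0019) and Lamc1 (245 and 267 against 470 and 751; 1.22 ± 0.29, 0.0237), which encode laminin chains. Nid1, which encodes the linker nidogen between laminin and type IV collagen, measured 93.6 and 160 against 481 and 375 CPM (1.68 ± 0.32, edgeR adjusted p = 0.00617). Sparc measured 268 and 247 against 687 and 548 CPM (1.22 ± 0.27, edgeR adjusted p = 0.0167). The times did not overlap for any of the 4. No result with a library left out, with DESeq2 or in a single cluster is given for them. Cluster 29 made up 30 and 17 of the fibroblast-like nuclei at ZT8 against 8 and 10 at ZT20. The summed astrocyte list there stood at 3424 and 3297 CPM at ZT8 against 2326 and 2830 at ZT20. The neuron list stood at 2603 and 2348 against 1501 and 1633, and the fibroblast list at 6495 and 7041 against 8020 and 8114. The part of this makeup and these lists in the 4 calls was not tested.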

How the data were processed

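Per the submitters' processing notes, the libraries were processed with Cell Ranger and STAR 2.6 against mm10, and per the file headers the matrices come from Cell Ranger 7.0.0; the deposited values are raw UMI counts per gene and barcode, not normalized by the authors. The collagen genes, gene lists and comparisons were chosen with earlier results of these data known.

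Barcodes with under 500 genes or over 5% mitochondrial UMIs were left out. Scrublet in scanpy 1.11.5 (Python 3.11.15) marked 0 or 1 nuclei per library, so the highest scores were removed at 0.8% of nuclei per 1000 nuclei (326 to 702). Clustering used 3000 variable genes without collagens, 40 principal components, 20 neighbours and Leiden at resolution 1, separately for neuron-like nuclei. Classes were named from markers without collagens, with score thresholds set after the clusters were seen, and 1831, 2071, 3416 and 4513 nuclei stayed unnamed. Cluster numbers of neurons and of all nuclei are separate series.

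Each library's UMI counts were summed within every class or cluster with at least 15 nuclei in each library (50 for neuron clusters). The 2 libraries of ZT20 were tested against the 2 of ZT8 in edgeR 4.0.16 under R 4.3.3 (filterByExpr, TMM, robust quasi-likelihood tests, two-sided, Benjamini-Hochberg over all genes tested). DESeq2 1.42.0 was the alternative tool; others were no filter on low counts, stricter nuclei (1000 genes, 1% mitochondrial), doublets kept, a replicate block and each library left out. Full statistics are given for up to 8 called collagens per direction with the smallest p in the larger comparisons and for Col23a1, Col25a1 and type IV genes; of the listed partner genes, up to 4 per direction in all and in neuron-like nuclei. The edgeR steps were tested on simulated data. Gene positions come from GENCODE M21 (GRCm38), where all 44 identifiers matched. Replicate numbers were not read as pairs: the replicate differences at ZT8 and ZT20 in neuron-like nuclei correlated at -0.01 over 17145 genes.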

Additional observations from a re-analysis of the deposited data

Results flagged for a closer look

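The change from ZT8 to ZT20 differed between GABAergic-like and thalamic-like neurons, by the interaction term of the edgeR model, for 7 collagens. The log2 change in GABAergic-like minus that in thalamic-like neurons was 0.49 for Col25a1, 1.03 for Col18a1 and 1.06 for Col6a1. It was -2.58 for Col27a1, -0.42 for Col4a2, -1.32 for Col5a1 and -0.63 for Col8a1. Both classes changed makeup between the times: GABAergic-like cluster 3 had 17 and 17 nuclei at ZT8 against 291 and 271 at ZT20 and cluster 28 had 67 and 93 against 8 and 5, while thalamic-like cluster 5 had 190 and 217 against 71 and 59. The part of this makeup in the differences was not tested. With 4 libraries, groups of 2 were too small to look for single outlying libraries.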

How the results depend on the processing

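DESeq2 called fewer collagens than edgeR: 14 in place of 25 in all kept nuclei and 9 in place of 41 over the other classes, where it gave no adjusted p for 11 of the 41. These 9 were 4 in thalamic-like neurons, 4 in GABAergic-like neurons and 1 in fibroblast-like nuclei, with 0 in every other class. With equal nuclei per neuron cluster 10 in place of 16 collagens were called in neuron-like nuclei, and Col18a1 (0.021), Col26a1 (0.11) and Col9a2 (-0.0052) turned sign. Without the thalamic-like clusters, chosen after seeing the data, 12 in place of 27 were called between GABAergic-like and glutamatergic-like neurons, and Col25a1 (0.48) and Col6a4 (-0.087) turned sign. Leaving out 1 library gave 19 to 22 calls in all nuclei, 15 to 19 in neuron-like nuclei, 32 to 38 over the other classes, 21 to 25 between neuron classes and 13 to 27 over the neuron clusters, where 13 came without ZT20 replicate 1 and 14 without ZT8 replicate 1. There the lone library of a time was assumed to vary like the pair of the other time. The causes were not tested, beyond the smaller number of genes, nuclei or libraries that each setting uses. With the replicate block 23, 17 and 51 collagens were called in all nuclei, neuron-like nuclei and the other classes, but the numbers share no animal, day or litter in the labels and did not correlate. Of 1118 pairs of a named value and an alternative, 969 kept direction and side of the threshold, 128 lost a call, 16 gained one and 5 turned sign. Fibroblast-like, mural-like and endothelial-like sums rest on 20 to 112 nuclei per library, and collagens there with few UMIs are limited by counting error.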
